A study of Mus musculus with 2 samples.

Results

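The 9 genes described here act in the inhibition of bone morphogenetic protein (BMP) signalling and were measured in ureters of mouse embryos. They are 5 genes of secreted antagonists, Grem1, Nog, Chrd, Bmper and Fst, and 4 genes of inhibitory regulators inside the cell or at its membrane, Smad6, Smad7, Bambi and Pmepa1. They were chosen by name, with earlier results of these data known, among 31693 genes on the array. There 10 probes carry them: 2 for Pmepa1 and 1 for each of the others. Of the 9 genes, 7 had a probe well above background and 2, Grem1 and Bambi, did not, among 21977 genes that did.

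Total RNA of ureters from NMRI mouse embryos at E14.5 was compared on 2 arrays read in 2 colours, where each array held 1 Bmp4cKO RNA and 1 control RNA. The Bmp4cKO embryos were Tbx18(cre/+);Bmp4(fl/fl), with cre in place of 1 Tbx18 copy and both Bmp4 alleles floxed, so that deletion is driven where Tbx18 is active, in the ureteric mesenchyme. The controls were Tbx18(+/+);Bmp4(fl/?), without cre, with at least 1 floxed Bmp4 allele and the other allele not specified. Both RNAs were labelled female on replicate 1 and male on replicate 2, and the dyes were swapped between the arrays. No label says if an RNA came from 1 embryo or several. The p-values rest only on the spread between these 2 arrays, combined with a prior for the variance shared over all genes. Since the tissue is whole ureter, fewer cells of a type and less RNA per cell cannot be told apart.

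BMPs are secreted ligands that bind paired type I and type II receptor kinases, which phosphorylate the transcription factors SMAD1, SMAD5 and SMAD9. Secreted antagonists hold the ligand outside the cell, while inhibitory SMADs and related proteins act on the activated receptor or on the SMADs. Several of the inhibitors are themselves target genes of the pathway, which gives it negative feedback. In the ureter, BMP4 from the mesenchyme is known for its role in smooth muscle formation and in differentiation of the epithelium.

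Array probes for Nog and Chrd are shown because Nog had the smallest change of the measured secreted antagonists and Chrd the lowest mean, and the probes have no stop codon in 3 and 2 of their reading frames. The Nog probe matches 1 unbroken stretch of the minus strand at chr11:89162849-89162908 (mm9). The Chrd probe has 60 bases but spans 173 bases of the plus strand at chr16:20739049-20739221 (mm9), so its target is interrupted in the genome. Other measured probes lie at chr9:23289301-23289360 (plus strand) for Bmper, chr13:115243565-115243624 (minus strand) for Fst and chr9:63800980-63801039 (minus strand) for Smad6, and no annotation of exons or UTRs in that build was used here.
Nog: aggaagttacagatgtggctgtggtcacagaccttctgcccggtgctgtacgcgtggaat
Chrd: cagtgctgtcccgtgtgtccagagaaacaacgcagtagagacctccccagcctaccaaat

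Promoter windows are shown for Smad6, the member that passed the test, and for Chrd, the measured member with the lowest mean. Each runs from 250 bases before to 20 bases after the start in RefSeq's table of build GRCm38.p6, where 4 of the 9 members matched, Grem1, Chrd, Bmper and Smad6. The Smad6 window is chr9:64022040-64022309 on the minus strand and the Chrd window chr16:20732877-20733146 on the plus strand. Capitals mark matches on either strand to 4 motifs known from SMAD binding, GTCTAGAC, GGCGCC, GCCGNCGC and GTCT.
Smad6: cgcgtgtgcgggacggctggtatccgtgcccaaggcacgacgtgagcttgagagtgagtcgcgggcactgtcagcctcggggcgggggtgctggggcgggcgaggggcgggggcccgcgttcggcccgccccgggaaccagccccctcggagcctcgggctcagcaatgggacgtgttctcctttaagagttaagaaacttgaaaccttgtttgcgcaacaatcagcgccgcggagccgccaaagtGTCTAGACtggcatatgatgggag
Chrd: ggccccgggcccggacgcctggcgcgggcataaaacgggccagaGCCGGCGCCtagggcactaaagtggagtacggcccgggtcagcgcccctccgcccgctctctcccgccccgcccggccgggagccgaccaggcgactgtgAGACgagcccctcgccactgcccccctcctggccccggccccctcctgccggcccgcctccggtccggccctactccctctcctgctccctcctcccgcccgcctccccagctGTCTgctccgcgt

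The palindrome GTCTAGAC, which holds GTCT on both strands, lay across the start in the Smad6 window, from base -4. It was present in 0.183% of 32851 promoter windows of this length and in none of the windows of Grem1, Chrd, Bmper and Bmp4. This motif was picked after the Smad6 sequence had been seen. In the Chrd window GGCGCC and GCCGNCGC overlapped, and these motifs were present in 10.4% and 7.77% of all windows. The short GTCT was present in 85.2% of them. A match describes these letters and is not evidence of binding.

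The floxed gene itself, Bmp4, went against the labels, with more signal where the label says Bmp4cKO. Its measured probe had processed signals of 29491 and 27393 in the RNAs labelled Bmp4cKO on replicates 1 and 2, against 3613 and 1973 in the RNAs labelled control. Its log2 ratio averaged 3.38 ± 0.48 over the arrays (SD, n = 2; limma adjusted p = 0.016). A second Bmp4 probe did not reach that level above background in any RNA. The measured stretch is chr14:47003391-47003450 (mm9), and no label says if it lies between the loxP sites. A probe outside them would not report the deletion. Why the signal was higher under that label, by probe position, exchanged dye labels or otherwise, was not tested. Tbx18, of which the Bmp4cKO genotype has cre in place of 1 copy, was also higher under that label. Its processed signals were 5076 and 5851 in the RNAs labelled Bmp4cKO, against 2603 and 2875 in the RNAs labelled control, with a mean log2 ratio of 0.97 ± 0.17 (SD over 2 arrays; limma adjusted p = 0.040). No label says if its probe, at chr9:87599514-87599573 (mm9), lies in a part that the cre allele lacks. Every ratio below sets the RNA labelled Bmp4cKO against the one labelled control, as the dye labels give them, and all of them turn together if those labels are exchanged. The sample titles read Bmp4cKO vs control, and in that order the authors' deposited folds put Bmp4 lower, at -8.16 and -13.9. Which of these opposite directions holds was not tested. For the measured members the direction is also stated relative to Bmp4.

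Of the 7 measured members 1, Smad6, was higher and none lower (limma, adjusted p under 0.05), where 0.887% of all genes were called higher and 1.02% lower. At an unadjusted limma p under 0.05 there were 3 higher, Smad6, Smad7 and Bmper, and 3 lower, Chrd, Fst and Pmepa1, against 7.15% and 7.37% of all genes. Each of the 7 went the same way on both arrays, 3 higher and 4 lower, while 28.2% of all genes were higher on both, 30.6% lower on both and 41.2% opposite. The processed signals of both RNAs labelled Bmp4cKO lay above both labelled control for 2 members and below both for 3, and for 16.4% and 17.7% of all genes. None was changed 2-fold on both arrays, which 0.578% of genes were upward and 0.619% downward.

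**Figure D1:**
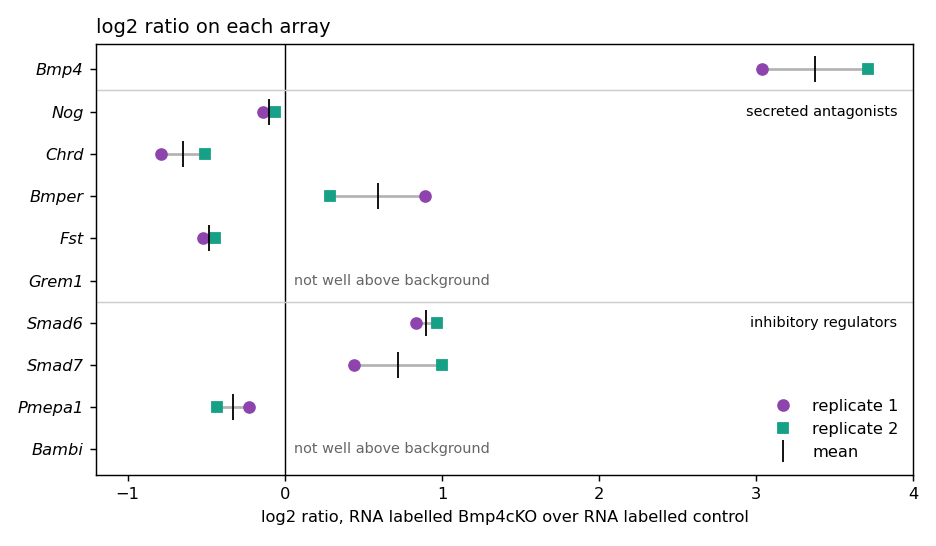
The log2 ratio, labelled Bmp4cKO over labelled control (horizontal axis), for Bmp4, the 5 secreted antagonists and the 4 inhibitory regulators, with a circle for replicate 1, a square for replicate 2 and a bar for their mean. Both points of each measured gene lie on 1 side of 0, and Smad6 has a mean of 0.90, far below the 3.38 of Bmp4.

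Chrd encodes chordin, a secreted protein that binds BMP2 and BMP4 and keeps them from their receptors. Its processed signals were 601 and 720 in the RNAs labelled Bmp4cKO, against 1088 and 1008 in the RNAs labelled control. Both values of the RNA labelled Bmp4cKO lay below both of the other, opposite to Bmp4. The 2 arrays gave log2 ratios of -0.79 and -0.51, with a mean of -0.65 ± 0.20 (SD over 2 arrays; limma 95% interval from -0.98 to -0.31). Its limma adjusted p was 0.099, and 4.94% of all genes had a larger mean change in either direction. It passed in 1 of 14 tested alternatives, a prior that follows intensity, at a limma adjusted p of 0.031 and the same mean. In that setting 611 genes were higher and 671 lower over the whole array, against 195 and 225 in the reported one.

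Fst encodes follistatin, which binds activins tightly and some BMPs less so. The gene had processed signals of 391 and 388 in the RNAs labelled Bmp4cKO, against 575 and 543 in the RNAs labelled control. These also lay apart, opposite to Bmp4, with little spread between the arrays. The mean log2 ratio was -0.48 ± 0.05 (SD over 2 arrays; limma 95% interval from -0.78 to -0.19), and the limma adjusted p was 0.14.

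Nog encodes noggin, an antagonist that covers the receptor-binding faces of the ligand. Its processed signals were 261 and 210 in the RNAs labelled Bmp4cKO, against 275 and 231 in the RNAs labelled control. The groups overlapped, and the mean log2 ratio was -0.10 ± 0.05 (SD over 2 arrays; limma adjusted p = 0.81). The limma 95% interval ran from -0.40 to 0.20, so that larger changes in either direction are outside it.

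Bmper encodes a secreted protein related to fly crossveinless-2 that binds BMPs and chordin and is known both to restrain and to promote BMP signalling. It differed in direction from the other secreted antagonists. Its processed signals were 19267 and 17251 in the RNAs labelled Bmp4cKO, against 10954 and 13637 in the RNAs labelled control, without overlap and in the direction of Bmp4. The 2 arrays gave log2 ratios of 0.89 and 0.29, with a mean of 0.59 ± 0.43 (SD over 2 arrays; limma adjusted p = 0.23). The limma 95% interval, from 0.13 to 1.05, reflects that unequal size on the 2 arrays.

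Grem1, the gene of gremlin 1, had processed signals of 13.7 and 11.7 in the RNAs labelled Bmp4cKO, against 8.97 and 6.27 in the RNAs labelled control. None of the 4 values was well above background, where the scanned spot was between 1.19 and 2.43 times its local background. No ratio is given for it.

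**Figure D2:**
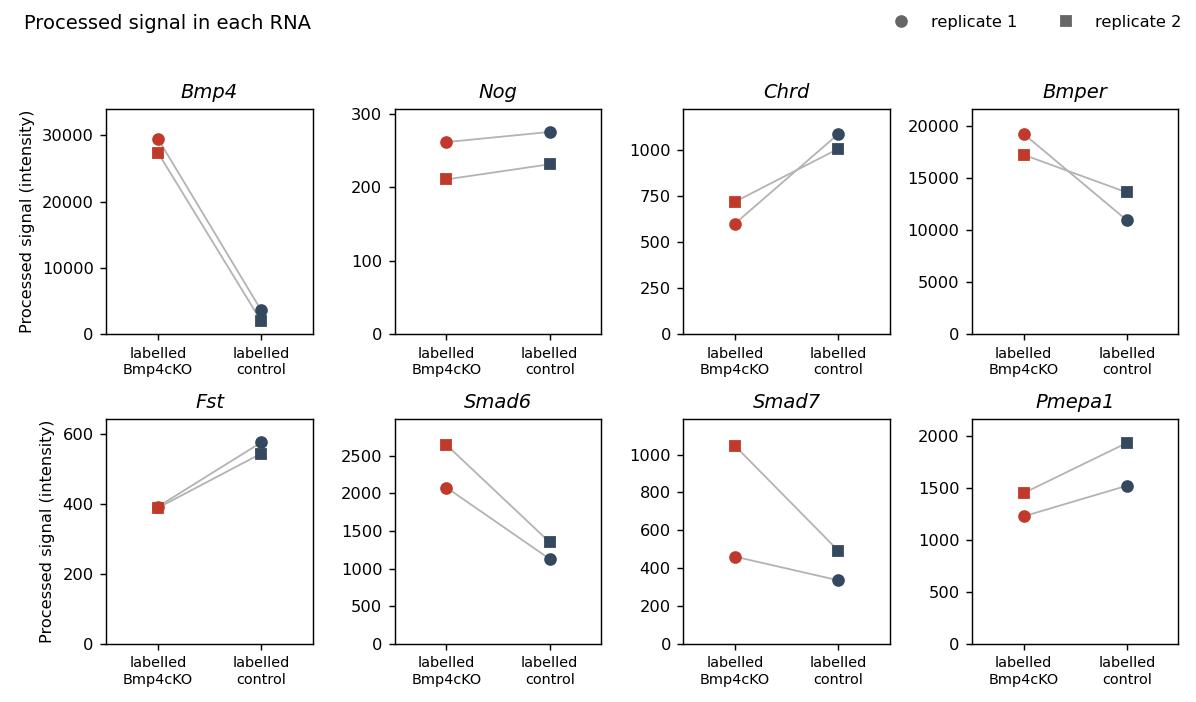
Processed signal, a background-subtracted and dye-normalized intensity on a linear axis from 0, of Bmp4 and the 7 measured members in each RNA, with lines joining the 2 RNAs of an array. Chrd, Fst and Pmepa1 lie lower and Bmper and Smad6 higher in both RNAs labelled Bmp4cKO than in both labelled control, while Nog and Smad7 overlap.

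Smad6 encodes an inhibitory SMAD that acts mainly on BMP receptors and on SMAD1, and is a known target gene of BMP signalling. It was the member with the largest mean change. Its processed signals were 2077 and 2644 in the RNAs labelled Bmp4cKO, against 1127 and 1349 in the RNAs labelled control. Both arrays showed the difference at similar size, in the direction of Bmp4, with log2 ratios of 0.83 and 0.97. The mean was 0.90 ± 0.09, a 1.87-fold difference (SD over 2 arrays; limma adjusted p = 0.041, 95% interval from 0.60 to 1.21). In all, 2.47% of genes had a larger mean change. The call was lost in 3 of 14 tested alternatives, at limma adjusted p = 0.34 with median centring, 1.00 with no normalization and 0.056 with separate channels and a dye term, while the mean stayed between 0.83 and 0.97 over all 16 alternatives that keep the dye labels' direction, those with 1 array left out included.

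Smad7 encodes the other inhibitory SMAD, which acts on both TGF-beta and BMP receptors. The gene had processed signals of 461 and 1046 in the RNAs labelled Bmp4cKO, against 335 and 492 in the RNAs labelled control. Within each array the RNA labelled Bmp4cKO was higher, but its lower value lay under the higher of the other RNA. The log2 ratios were 0.44 and 1.00, with a mean of 0.72 ± 0.39 (SD over 2 arrays; limma adjusted p = 0.14, 95% interval from 0.28 to 1.15). Replicate 2 thus gave most of the mean, in contrast to Smad6.

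Pmepa1 encodes a membrane protein that restrains TGF-beta signalling by binding receptor-activated SMADs and is induced by TGF-beta. Its brighter probe had processed signals of 1229 and 1453 in the RNAs labelled Bmp4cKO, against 1524 and 1937 in the RNAs labelled control. The mean log2 ratio was -0.33 ± 0.14, opposite to Bmp4 (SD over 2 arrays; limma adjusted p = 0.33, 95% interval from -0.65 to -0.01). The second probe, with 921 and 1266 in the RNAs labelled Bmp4cKO against 1147 and 1403 in the RNAs labelled control, had a mean of -0.23, of the same sign and with overlapping groups. The 2 probes share 56 of their 60 positions, chr2:173049970-173050025 on the minus strand (mm9), and are not independent. Over the shared stretch they differ by G4A, counted from the 5′ end of the brighter probe, whose base comes first.

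Bambi encodes a membrane pseudoreceptor that resembles a type I receptor without its kinase. Its processed signals were 7.75 and 8.89 in the RNAs labelled Bmp4cKO, against 5.03 and 4.15 in the RNAs labelled control, none of them well above background. No ratio is given for it.

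The 2 sets had medians on opposite sides of 0, but their members overlapped. The 4 measured secreted antagonists had a median log2 ratio of -0.29, and the 3 measured inhibitory regulators one of 0.72, where all genes had -0.01. Secreted antagonists minus inhibitory regulators was -1.01, or -0.77 on replicate 1 and -1.22 on replicate 2. Without the filter on dim probes, which adds Grem1 and Bambi at background level, it was -0.60. Bmper, a secreted antagonist, was above 0, and Pmepa1, an inhibitory regulator, was below it. So by the sign of the mean the 2 inhibitory SMADs and Bmper went with Bmp4, and Chrd, Fst, Nog and Pmepa1 went against it. Of these only Smad6 passed the test, and the limma 95% interval of Nog, from -0.40 to 0.20, held 0. The difference between the sets was not tested, since 4 and 3 genes are not replicates.

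**Figure D3:**
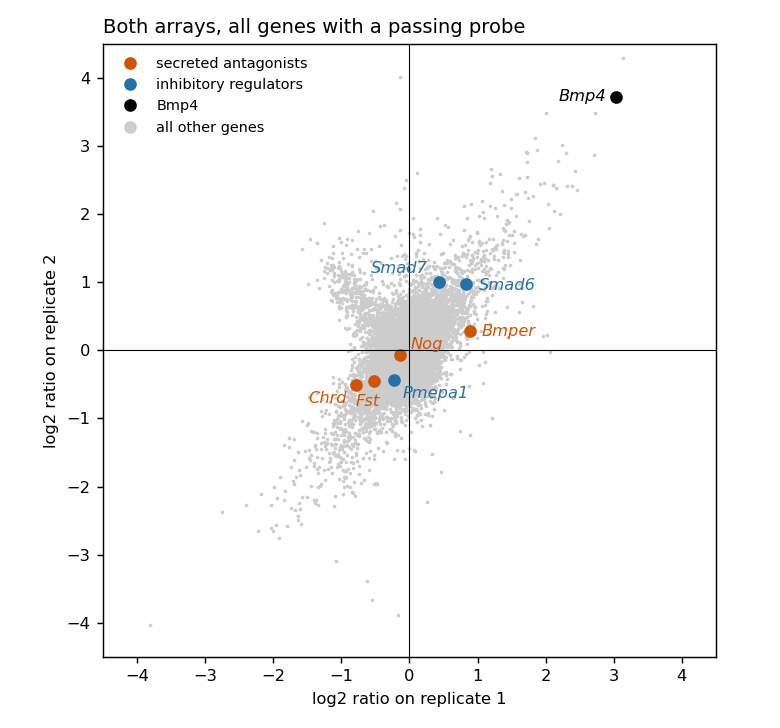
The log2 ratio, labelled Bmp4cKO over labelled control, on replicate 1 (horizontal) against replicate 2 (vertical) for 21977 genes, with secreted antagonists in orange, inhibitory regulators in blue and Bmp4 in black. Smad6, Smad7 and Bmper lie in the upper right, Chrd, Fst, Pmepa1 and Nog in the lower left, and Bmp4 at the far upper end.

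Of 14 other genes of secreted antagonists considered here 12 were measured, and 0 of them were higher or lower (limma, adjusted p under 0.05), with 1 higher and 2 lower at an unadjusted limma p under 0.05. Their median log2 ratio was -0.17, and 2 were higher and 7 lower on both arrays, against 28.2% and 30.6% of all genes. Nbl1, which encodes a BMP-binding protein of the family of gremlin 1, had processed signals of 2919 and 3103 in the RNAs labelled Bmp4cKO, against 4796 and 5128 in the RNAs labelled control. These did not overlap, opposite to Bmp4 as for Chrd and Fst, and the mean log2 ratio was -0.71 ± 0.06 (SD over 2 arrays; limma adjusted p = 0.064). Crim1, which encodes a membrane-anchored protein with chordin-like repeats, had 60.4 and 117 in the RNAs labelled Bmp4cKO, against 51.3 and 51.2 in the RNAs labelled control. Its mean was 0.47 ± 0.47, most of it from replicate 2 (limma adjusted p = 0.36).

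Of the ligands that these antagonists bind, more were lower than higher. Of 12 listed genes 11 were measured, with 3 higher and 7 lower on both arrays, where 28.2% of all genes were higher on both and 30.6% lower. By the limma test 1 was higher, Bmp4 itself, and 3 were lower, with a median log2 ratio of -0.67. Inhba, which encodes the activin A subunit bound by follistatin, had processed signals of 985 and 774 in the RNAs labelled Bmp4cKO, against 3818 and 3584 in the RNAs labelled control. Its mean log2 ratio was -2.02 ± 0.25 (SD over 2 arrays; limma adjusted p = 0.019), alongside a mean of -0.48 for Fst. Bmp2, whose protein chordin and noggin bind, had signals of 413 and 638 in the RNAs labelled Bmp4cKO against 987 and 1514 in those labelled control. The mean log2 ratio of Bmp2 was -1.22 ± 0.02 (limma adjusted p = 0.023). Gdf7, a related ligand gene, had 39.7 and 36.8 in the RNAs labelled Bmp4cKO against 110 and 94.2 in those labelled control. The mean log2 ratio of Gdf7 was -0.90 ± 0.05 (limma adjusted p = 0.039), and its other passing probe had a mean of -1.56. With separate channels the limma adjusted p was 0.071 for Bmp2 and 0.053 for Gdf7, and with a dye term added 0.060 for Gdf7. For each of these 3 genes both RNAs labelled Bmp4cKO lay below both labelled control, opposite to Bmp4.

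Of 3 genes of tolloid proteases, which cleave chordin, 2 were measured and 0 were called in either direction, at either limma threshold. Bmp1 had a mean log2 ratio of -0.35 and Tll1 one of -0.10, or -0.72 on a dimmer probe. Of 9 type I and type II receptor genes none was called, and 1 higher and 1 lower passed at an unadjusted limma p under 0.05. Bmpr1b, a type I receptor gene, had a mean of -1.15, or -0.72 on its other probe (limma adjusted p = 0.068). Bmpr2, the type II receptor gene for BMPs, had ratios of 0.06 on replicate 1 and -1.46 on replicate 2.

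SMAD genes other than the inhibitory ones gave 1 call of 6 measured. Smad9, a BMP-activated SMAD gene that is itself a BMP target, had processed signals of 449 and 632 in the RNAs labelled Bmp4cKO, against 176 and 248 in the RNAs labelled control, and a mean log2 ratio of 1.18 ± 0.09 (SD over 2 arrays; limma adjusted p = 0.026, or 0.053 with separate channels). The other 5, for SMADs 1 to 5, had means from -0.33 to 0.21. Smad6 and Smad9 thus both were higher with similar ratios on the 2 arrays.

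Genes of other inhibitors inside the cell, such as the ubiquitin ligase SMURF1 and the co-repressor SKI, gave 0 calls among 20 measured, with 1 higher and 0 lower at an unadjusted limma p under 0.05. Their median log2 ratio was -0.06. On both arrays 2 were higher and 7 lower, and 11 went opposite ways. Over all genes these were 28.2%, 30.6% and 41.2%. Zeb2, which encodes a SMAD-binding repressor, had the largest mean, 0.65 (limma adjusted p = 0.075), and Tob1 had -0.20 and 0.89 on the 2 arrays. By their means, 0.90 and 0.72, the inhibitory SMADs stood above these genes, a difference that was not tested. On replicate 1, however, Smad7 had 0.44 and Zeb2 0.61.

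Of 10 BMP target genes 2 were higher and 0 lower, with a median log2 ratio of 0.45. On both arrays 9 were higher, where 28.2% of all genes were. Msx2, a homeobox gene, had processed signals of 531 and 1071 in the RNAs labelled Bmp4cKO, against 183 and 182 in the RNAs labelled control, with a mean log2 ratio of 1.85 ± 0.69 (limma adjusted p = 0.041, or 0.076 with a robust prior and 0.052 with the mean of the probes of each gene). Id4, an inhibitor of differentiation gene, had 14010 and 18043 in the RNAs labelled Bmp4cKO against 7255 and 7743 in those labelled control, with a mean of 1.11 ± 0.20 (limma adjusted p = 0.035). Smad6 lay within the wide range of this list, from 0.10 to 1.85, as did Smad7 and Bmper. The other measured members lay below it, and such a range does not tell a target gene from other genes. Of 8 TGF-beta responsive genes 0 were called, with 3 higher and 1 lower at an unadjusted limma p under 0.05 and a median of 0.25. Ccn2 had a mean of 0.78, Cdkn2b of 0.76 and Tgfbi of -0.74, so that both signs occurred beside the -0.33 of Pmepa1.

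**Figure D4:**
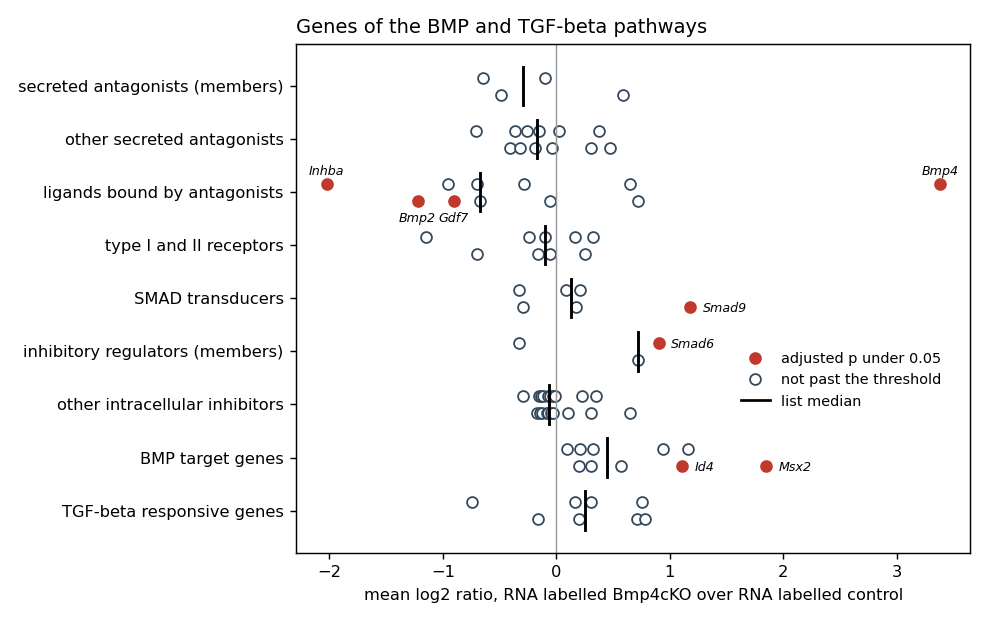
Mean log2 ratio, labelled Bmp4cKO over labelled control (horizontal axis), for each measured gene of 9 lists, filled red where the limma adjusted p was under 0.05, with a black bar at each list's median. Bmp4, Smad9, Smad6, Id4 and Msx2 are the filled points above 0, and Inhba, Bmp2 and Gdf7 those below it.

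Markers of several cell types also differed between the labels, and their part in the members' ratios was not tested. All 9 urothelial markers were well above background in every RNA, and 6 were higher and 0 lower, with summed processed signals of 25624 and 35935 in the RNAs labelled Bmp4cKO against 8762 and 8966 in the RNAs labelled control. Smooth muscle markers, 3 of 7 higher, summed to 39285 and 59079 against 28347 and 26964. Markers of nephron and bud tip were lower in 4 of 8 (32908 and 28328 against 34339 and 44752), of kidney stroma in 2 of 5 (78017 and 76127 against 78227 and 107278) and of neural and Schwann cells in 3 of 7 (4941 and 4262 against 7090 and 7796). In these lists Cited1, of nephron and bud tip, and Pdgfra, of kidney stroma, were higher at an unadjusted limma p under 0.05. Endothelial markers were called in 0 of 8, with 4 higher and 0 lower at an unadjusted limma p under 0.05. The ureteric mesenchyme markers were all well above background, and of these 7 Tbx18 and Gata6 were higher, Gata6 at 1.09 ± 0.20 (limma adjusted p = 0.035). Cartilage and bone markers, with Matn1 and Runx2 not above background, and blood markers were called in 0 of 4 and 0 of 7 measured, and of 5 skeletal muscle markers 1 was higher and 1 lower. Both arrays lay on 1 slide scanned once, and dye orientation and sex label changed together between them.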

How the data were processed

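Total RNA (200 ng per labelling, per the labels' protocols) of 2 RNAs per genotype was hybridised to 2 two-colour arrays on 1 slide. The deposited mean and background spot values are intensities as scanned and quantified with Agilent Feature Extraction 10.7.3.1, per the submitters' processing notes, with probe positions on mm9, per the file headers. Processed signals, also deposited intensities, had their background removed and dyes balanced by that software (per the file headers), and its deposited log ratio is a log10 of red over green. The authors' deposited value table holds a score per probe, by comparison a signed fold that matched the size of the scanner's ratio within 0.01 (log2) for 99.6% of values of probes above background in all 4 channels. Its direction is not stated apart from the sample titles, which read Bmp4cKO vs control, and its median was 1 in both columns. The authors' deposited table puts Bmp4 at -8.16 and -13.9, with the same sign on both arrays although the dyes were swapped. Read in the order of the titles, Bmp4 is lower in Bmp4cKO, opposite to the ratios by the dye labels.

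Background was corrected with normexp (offset 50) and ratios normalized by loess within each array, with limma 3.58.1 under R 4.3.3. Of 44397 spots per array, 1377 controls had weight 0, and 231 and 235 outlier spots were left out. In a channel, 69.3% to 74.6% of spots passed its background test and 0 were saturated, and the number of arrays, 2, limits the precision. Probes were kept where well above background in both RNAs of a genotype label, and the brightest stood for its gene. Of 39429 probes 31001 were named through a RefSeq table. Genes were fitted with lmFit and eBayes, with 1 residual and 4.03 prior degrees of freedom, with Benjamini-Hochberg adjustment over 21977 genes. The fit was tested on simulated data with independent errors and true changes larger than that of any member. Changes of the members' size were not simulated. The array itself pairs the RNAs, and separate channels without a replicate block were an alternative.

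The members and lists were chosen with earlier results of these data known. The rule for names took, from each further list, up to 4 called genes with the largest change, or the 2 largest where none was called. It was followed for the pathway lists, with Tgfbi added after its value was seen, while marker lists are given mainly as counts and summed signals. Of the genes on the lists 1, not a member, is not reported here and was left out of its list.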

Additional observations from a re-analysis of the deposited data

Results flagged for a closer look

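Some genes named beside the members had a positive ratio on 1 array and a negative one on the other. The arrays differ in sex label and dye orientation together, and these differences were not tested. Replicate 2 minus replicate 1 of the log2 ratio was 1.09 for Tob1 and -1.52 for Bmpr2. It was 2.25 for Hbb-bt, a haemoglobin gene among the blood markers. Each measured member kept its sign on both arrays. Their differences ran from -0.61 for Bmper to 0.56 for Smad7. For mean red over green, 0 of 21977 genes were called (limma, adjusted p under 0.05).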

How the results depend on the processing

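The direction of each measured member was the same in 16 alternatives, all except the authors' value table with its sign as it stands. With that sign the log2 values turned to -3.41 for Bmp4, 0.10 for Nog, 0.67 for Chrd, -0.58 for Bmper, 0.52 for Fst, -0.93 for Smad6, -0.77 for Smad7 and 0.36 for Pmepa1. They turned to 2.08 for Inhba, 1.25 for Bmp2, 1.41 for Gdf7, -1.35 for Smad9, -1.08 for Id4 and -2.05 for Msx2. The difference of the set medians turned to 1.08, and 0 members were then higher and 1, Smad6, lower, with 338 genes higher over the array. With the sign turned 298 genes were higher and 338 lower. In the reported setting 195 genes were higher and 225 lower. With plain subtraction these were 339 and 388, with an offset of 16 they were 305 and 348, and with an intensity trend 611 and 671, where 1 member, Chrd, was lower. With median centring 0 genes were higher or lower, and with no normalization 0 and 1. In both, 0 members were called, as with separate channels and a dye term. The causes were not tested. Without the filter on dim probes the difference of the medians was -0.60, since Grem1 and Bambi then enter at background level. With replicate 1 or 2 left out it was between -1.22 and -0.77, and the 2-fold count stayed at 0 in both directions. Separate channels with no replicate block kept 1 member higher. Smad6 had adjusted p-values from 0.0041 to 1.00 over the tested alternatives. In 2 of those, the normalizations other than loess, Bmp4 itself did not pass either, at 0.30 and 0.28, nor did Inhba, Bmp2, Gdf7, Smad9, Id4 or Msx2.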
